A study of Mus musculus with 12 samples.

Results

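The MHC class I presentation genes described here are 10 mouse genes: the heavy chains H2-K1, H2-D1 and H2-T23, the light chain B2m, the peptide transporter subunits Tap1 and Tap2, the loading factor Tapbp, the immunoproteasome subunits Psmb8 and Psmb9, and the transactivator Nlrc5. They were taken by symbol, not by any measured value, and all 10 were found among the 51826 genes of the files. The study has 9 T-cell acute lymphoblastic leukemia tumors, labelled as thymus, from mice that express IL-7Rα from a tetracycline-inducible construct after doxycycline. They are compared with thymus from 3 healthy control mice. Both groups carry the strain name F5 in the labels, which state no age or MHC haplotype, and no construct for the controls. Which promoter and cells drive the inducible construct is not stated in the labels. Poly(A) RNA was sequenced as 75-base paired-end reads, with 1 library a mouse sample as far as the labels say.

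Class I molecules show peptides of a cell's own proteins to CD8 T cells. The proteasome cuts proteins to peptides, the TAP1 and TAP2 transporter carries the peptides into the endoplasmic reticulum, and tapasin holds the transporter to a heavy chain paired with beta-2 microglobulin until a peptide is bound. Interferons raise most of these genes, and NLRC5 acts at class I promoters. In the thymus, class I molecules select CD8 T cells, and immature thymocytes that carry both CD4 and CD8 are known for low class I on their surface.

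By the GRCm38 annotation, 8 of the 10 genes lie on chromosome 17, in and beside the MHC. H2-K1 spans chr17:33996017-34000347 (minus strand), H2-D1 chr17:35262730-35267499 (plus) and H2-T23 chr17:36029773-36032855 (minus). Tapbp spans chr17:33915899-33929292 (plus). Psmb9 at chr17:34181987-34187764 (minus), Tap1 at chr17:34187553-34197225 (plus), Psmb8 at chr17:34197721-34201454 (plus) and Tap2 at chr17:34203527-34216321 (plus) follow one another. B2m lies at chr2:122147686-122153083 (plus) and Nlrc5 at chr8:94434356-94527272 (plus). RefSeq's promoter table (GRCm38.p6) held 8 of the 10 genes and none for Tap2 or Nlrc5. The 200 bases before the annotated start are printed for the classical heavy chains H2-K1 and H2-D1, their light chain B2m and the transporter subunit Tap1, chosen by role, and capitals mark matches to the motifs searched.
H2-K1, chr17:34000348-34000547, minus strand: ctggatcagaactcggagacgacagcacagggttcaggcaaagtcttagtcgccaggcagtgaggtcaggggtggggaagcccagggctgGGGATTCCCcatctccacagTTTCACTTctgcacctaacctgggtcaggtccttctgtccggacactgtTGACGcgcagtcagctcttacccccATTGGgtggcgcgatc
H2-D1, chr17:35262894-35263093, plus strand: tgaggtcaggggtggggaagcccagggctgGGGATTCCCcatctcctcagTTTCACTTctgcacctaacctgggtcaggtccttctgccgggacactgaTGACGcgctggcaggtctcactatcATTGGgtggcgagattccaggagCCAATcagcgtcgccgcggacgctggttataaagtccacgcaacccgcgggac
B2m, chr2:122147487-122147686, plus strand: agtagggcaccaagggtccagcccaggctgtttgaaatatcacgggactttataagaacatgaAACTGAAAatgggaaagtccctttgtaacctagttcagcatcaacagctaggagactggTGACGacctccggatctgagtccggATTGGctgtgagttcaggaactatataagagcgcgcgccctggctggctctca
Tap1, chr17:34187356-34187555, plus strand: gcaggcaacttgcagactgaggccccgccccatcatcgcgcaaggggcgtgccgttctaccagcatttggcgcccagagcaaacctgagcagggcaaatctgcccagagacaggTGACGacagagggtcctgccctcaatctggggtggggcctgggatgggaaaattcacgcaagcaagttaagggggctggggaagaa
The motifs, searched on both strands over the same 200 bases of 32851 promoters, were chosen after these windows had been read. The sequence GGGATTCCC, a site of the NF-kappaB family, was in H2-K1 and H2-D1, and in 0.213% of all promoters. TGACG, the core of a cyclic AMP response element, was in all 4 printed windows, against 15.7% of promoters, and the match of Tap1 is on the same bases as the match in the window of Psmb9. CCAAT was in the windows of H2-K1, H2-D1 and B2m, against 29.3%. AANNGAAA, a core bound by interferon regulatory factors, was in H2-K1, H2-D1 and B2m, against 17% of promoters. In H2-K1 the matches to GGGATTCCC, AANNGAAA, TGACG and CCAAT began 110, 90, 41 and 16 bases before the start, and in H2-D1 170, 150, 101 and 76 bases before it, in the same order, with a second CCAAT at 53 in H2-D1. No match overlapped another in the printed windows, and the window of H2-K1 is that of the upstream of its 2 annotated starts. Of the windows not printed, H2-T23 held CCAAT and AANNGAAA, Psmb9 held CCAAT, Tapbp held CCAAT, and Psmb8 held TTCNNNGAA, which was in 5.49% of promoters. The starts of Psmb9 and Tap1 lie 226 bases apart on opposite strands, so their windows overlap. A match here is a run of letters, not a measured binding site.

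The libraries held 8133152 to 34769946 estimated counts, of which 3483146 to 13389852 were on nuclear protein-coding genes. Tumors 1 to 6 stood apart from tumors 7 to 9 and the controls. Ribosomal protein genes, as a share of nuclear protein-coding counts, were between 1.59% and 3.29% in tumors 1 to 6, between 0.0703% and 0.125% in tumors 7 to 9 and between 0.165% and 0.402% in controls. The satellite-like gene model Gm10800 took between 0.194% and 10.1% in tumors 1 to 6, between 39.6% and 58.0% in tumors 7 to 9 and between 31.1% and 39.2% in controls. The median density on olfactory and vomeronasal receptor genes, which thymus is not known to use, was 0 to 4.77 counts per kilobase in tumors 1 to 6, between 14.2 and 25.1 in tumors 7 to 9 and between 20.4 and 23.4 in controls. The 8 T cell markers summed to between 1787 and 2969 CPM in tumors 1 to 6, between 65.7 and 258 in tumors 7 to 9 and between 126 and 242 in controls, so the markers that define thymocytes were low in the controls and in tumors 7 to 9. Il7r lay between 73.5 and 877 CPM in tumors 1 to 6, between 7.52 and 22.4 in tumors 7 to 9 and between 9.97 and 16.1 in controls. Levels below are therefore given for tumors 1 to 6 first, with the other libraries beside them. CPM means counts per 1000000 nuclear protein-coding counts, and the satellite-like model is inside that denominator. In bulk RNA, fewer cells of a type and less RNA per cell cannot be told apart.

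B2m, the light chain shared by all class I molecules, was the most abundant of the 10 genes per transcript length in 6 of 6 tumors. Its level was 373, 297, 81.0, 587, 375 and 153 CPM in tumors 1 to 6, 9.34, 17.3 and 4.94 CPM in tumors 7 to 9, and 46.1, 4.02 and 3.30 CPM in controls 1 to 3. Tumors 1 to 6 all lay above the controls, and control 1 was far above the other controls. In control 1 the density on B2m was 21.6 times the receptor median, against 1.44 and 1.21 times in controls 2 and 3.
H2-K1 and H2-D1, the classical heavy chains that present peptides to CD8 T cells, had, with Nlrc5, the widest ranges among tumors 1 to 6, 22.5-fold for H2-K1 and 7.81-fold for H2-D1. H2-K1 was at 61.9, 31.3, 21.1, 452, 29.6 and 20.1 CPM in tumors 1 to 6, 5.51, 23.2 and 11.7 CPM in tumors 7 to 9, and 14.4, 17.2 and 13.6 CPM in controls. H2-D1 was at 43.8, 30.4, 60.3, 215, 91.4 and 27.5 CPM in tumors 1 to 6, 5.03, 16.7 and 10.2 CPM in tumors 7 to 9, and 15.3, 9.92 and 10.4 CPM in controls. Both heavy chains were highest in tumor 4 and lowest in tumor 6, and no value of tumors 1 to 6 overlapped the controls. The 95% Wilson interval of H2-K1, which covers counting error only, was 431 to 475 CPM in tumor 4 and 54.7 to 70.0 CPM in tumor 1, the next highest. H2-K1 in tumors 3 and 6 could not be told apart by counting error, with intervals of 17.4 to 25.7 and 17.1 to 23.7 CPM. The interval of control 2, 14.0 to 21.0 CPM, overlapped both, so H2-K1 in these tumors is not clear of the controls by counting error.
H2-T23 encodes Qa-1, a non-classical heavy chain that presents leader peptides of other class I molecules to NK receptors. It was at 31.6, 29.0, 26.7, 63.8, 13.3 and 51.7 CPM in tumors 1 to 6, 9.85, 22.4 and 25.7 CPM in tumors 7 to 9, and 41.8, 43.0 and 33.0 CPM in controls. The groups overlapped, with 2 of tumors 1 to 6 above every control. Heavy chain genes and their H2-Q and H2-T relatives are near-identical in parts, and the counting program divides shared reads among them, so their separate values are uncertain.
Per effective length, the ratio of H2-K1 to H2-D1 was 1.28, 0.695, 0.212, 1.36, 0.169 and 0.916 in tumors 1 to 6. The ratio of B2m to H2-K1 was lowest in tumor 4, at 2.55, and highest in tumor 5, at 25.8. The levels of B2m and H2-K1 did not keep the same order of tumors: tumors 1 and 5 had 373 and 375 CPM of B2m but 61.9 and 29.6 CPM of H2-K1.

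**Figure D1:**
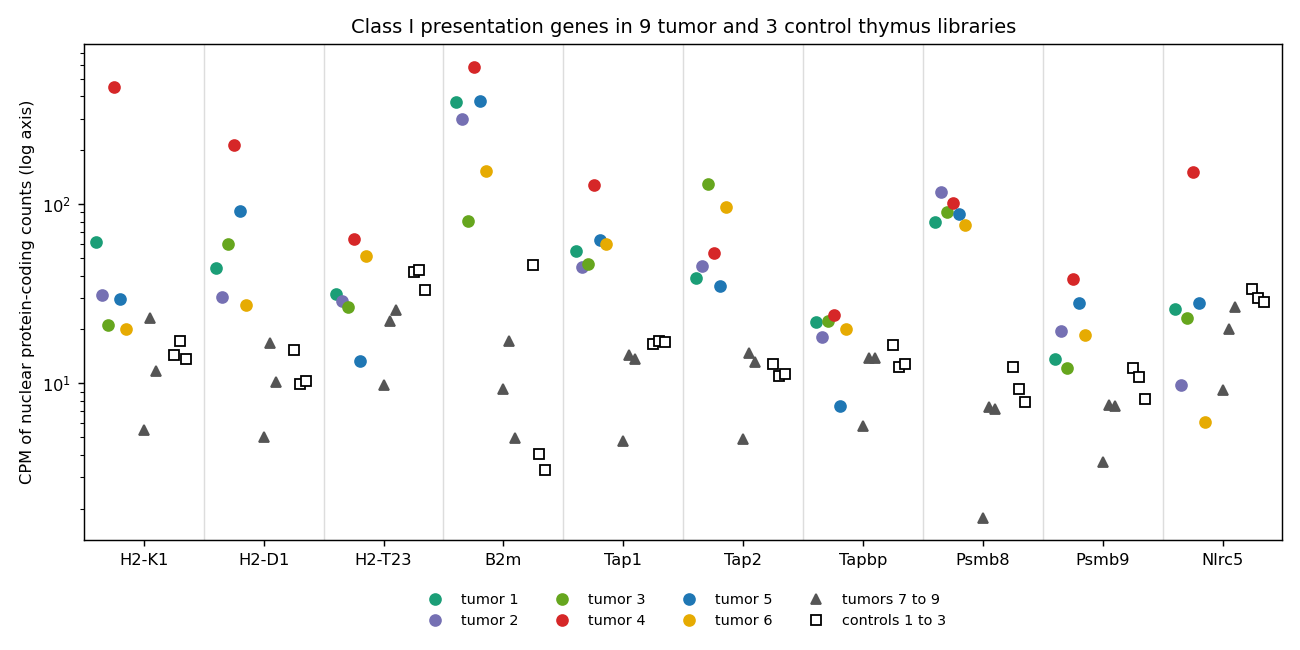
Each gene's level in every library, in CPM of nuclear protein-coding counts on a log axis; circles are tumors 1 to 6 (tumor 4 in red), triangles tumors 7 to 9 and open squares controls. Tumor 4 is the highest of tumors 1 to 6 for 8 of the 10 genes on this scale and for 2 with whole library totals.

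Tap1 and Tap2 encode the subunits of the peptide transporter. Tap1 was at 54.5, 44.7, 46.1, 129, 63.4 and 60.2 CPM in tumors 1 to 6, 4.79, 14.5 and 13.6 CPM in tumors 7 to 9, and 16.7, 17.2 and 17.0 CPM in controls. Tumors 1 to 6 were all above the controls, tumors 7 to 9 all below them, and tumor 4 stood above the other tumors. Tap2 was at 38.7, 45.2, 129, 53.7, 35.1 and 96.9 CPM in tumors 1 to 6, 4.87, 14.8 and 13.1 CPM in tumors 7 to 9, and 12.8, 10.9 and 11.3 CPM in controls. Tap2 was highest in tumor 3 and next in tumor 6, not in tumor 4, and did not overlap the controls in tumors 1 to 6. Per effective length, the ratio of Tap1 to Tap2 ran between 0.311 in tumor 3 and 1.16 in tumor 4.
Tapbp encodes tapasin. It was at 22.1, 18.1, 22.4, 24.1, 7.50 and 20.0 CPM in tumors 1 to 6, 5.81, 13.8 and 13.9 CPM in tumors 7 to 9, and 16.3, 12.4 and 12.9 CPM in controls. Tumor 5 was below every control and the other tumors of 1 to 6 were above them. The Wilson intervals of tumor 4 (19.6 to 29.7 CPM) and tumor 3 (18.5 to 27.1 CPM) overlapped, so which of them was highest could not be told at this depth. Tapbp had the lowest mean level per length of the 10 genes, 16.6 ± 7.24 TPM over tumors 1 to 6 (SD, n = 6), on a TPM scale set to nuclear protein-coding genes.

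Psmb8 and Psmb9 encode LMP7 and LMP2, the catalytic subunits that replace PSMB5 and PSMB6 in the immunoproteasome. Psmb8 was at 79.3, 118, 90.4, 102, 88.0 and 76.9 CPM in tumors 1 to 6, 1.78, 7.42 and 7.18 CPM in tumors 7 to 9, and 12.4, 9.28 and 7.83 CPM in controls. It was the steadiest of the 10 genes over tumors 1 to 6, with 1.53-fold between the highest and lowest tumor and an SD of log2 level at the 5.53 percentile of 9619 genes with a mean of at least 10 CPM. With the whole library total as denominator that fold was 2.58, and with ribosomal protein counts 2.28. Psmb9 was at 13.7, 19.5, 12.2, 38.2, 28.0 and 18.6 CPM in tumors 1 to 6, 3.63, 7.62 and 7.48 CPM in tumors 7 to 9, and 12.2, 10.9 and 8.16 CPM in controls. Its tumor 3 value overlapped control 1, and the other tumors of 1 to 6 were above the controls.
Set against the constitutive subunit that each replaces, per effective length, the immunoproteasome subunits gave unlike ratios. Psmb8 over Psmb5 was 6.04, 9.83, 12.05, 24.8, 2.84 and 4.64 in tumors 1 to 6, above 1 in 6 of 6. Psmb9 over Psmb6 was 0.500, 0.284, 0.414, 1.59, 1.39 and 0.356, above 1 in tumors 4 and 5. Psmb10, which encodes the third inducible catalytic subunit, over Psmb7 was 0.0310 to 0.152, above 1 in 0 of 6. These are ratios of RNA, and the value of Psmb5 behind the ratio of tumor 4 was low, 3.29 CPM. For Psmb9, 45.8% of the counts of tumor 4 were on protein_coding transcripts. In tumor 5, 145 of its 375 counts were on Psmb9-202, a model of 433 bases, which weighs on a level per length. As plain counts, Psmb9 over Psmb6 was 2.21 in tumor 4 and 1.18 in tumor 5.

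**Figure D2:**
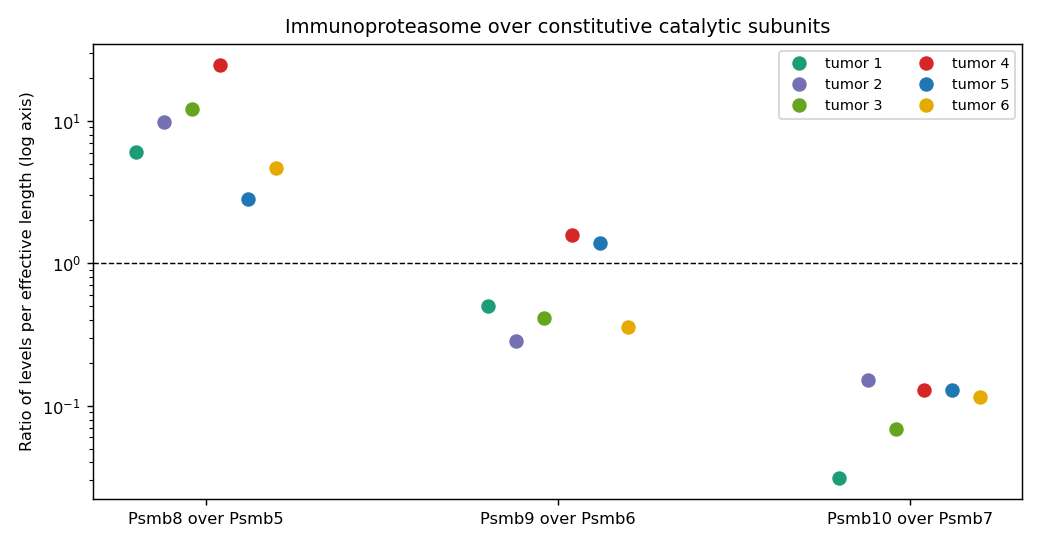
Ratio of each immunoproteasome catalytic subunit to the constitutive subunit it replaces, as levels per effective length on a log axis, with a point for each of tumors 1 to 6 and a dashed line at 1. Psmb8 over Psmb5 is above 1 in 6 of 6 tumors, Psmb9 over Psmb6 in 2 and Psmb10 over Psmb7 in 0.

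Nlrc5 encodes the class I transactivator. It was at 26.0, 9.76, 23.3, 151, 28.2 and 6.06 CPM in tumors 1 to 6, 9.17, 20.1 and 26.9 CPM in tumors 7 to 9, and 33.7, 30.1 and 28.4 CPM in controls. Tumor 4 was the only library of tumors 1 to 9 above the controls. It was 5.37-fold above tumor 5, the next, and 24.98-fold above tumor 6, the lowest, the widest range of the 10 genes.

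Over the 10 genes, mean levels per length in tumors 1 to 6 were ordered B2m (532 ± 331 TPM, SD, n = 6), Psmb8 (120 ± 25.7), H2-D1 (115 ± 109), H2-K1 (93.6 ± 156), Tap2 (64.2 ± 38.7), Tap1 (43.7 ± 22.4), Psmb9 (39.2 ± 26.9), H2-T23 (25.4 ± 13.7), Nlrc5 (23.6 ± 31.5) and Tapbp. Each gene but B2m differed from the next in that order by less than the larger SD of that pair. By the median, H2-K1, at 32.8 TPM, was below Tap2 and Tap1, at 56.4 and 35.2 TPM. Tumor 4 alone set the place of H2-K1 in the order of means.

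Tumor 4 was the highest of tumors 1 to 6 for 8 of the 10 genes, all but Tap2 and Psmb8, against 7.43% of the 9619 genes. The count was 7 of 10 with ribosomal protein counts as denominator (6.74% of genes) and 8 of 10 with relative log expression factors (6.82%). With the whole library total, of which 66.5% was mitochondrial in tumor 4, it fell to 2 of 10, H2-K1 and Nlrc5 (0.645% of genes). On that scale tumor 5 was highest for 5 of the 10 (35.7% of genes) and tumor 6 for 3 (50.7% of genes). On log2(CPM + 1), tumor 4 exceeded the gene's own mean over tumors 1 to 6 by 3.22 for H2-K1, 2.63 for Nlrc5, 1.84 for H2-D1, 1.18 for B2m, 1.05 for Tap1, 0.97 for H2-T23, 0.89 for Psmb9, 0.41 for Tapbp and 0.15 for Psmb8, and was 0.13 below it for Tap2. The median fold between the highest and lowest tumor was 4.24 over the 10 genes and 2.50 over the 9619 genes, and 9 of the 10 lay above that of the 9619 genes. No replicate library of any tumor was made, so the spread within a tumor is unknown.
Some marker sums of other cell types were also highest in tumor 4. The sums of the B cell list (5 markers) and the NK list (4 markers) were highest there, at 32.9 and 30.2 CPM. Of the single markers, 2 of the 5 and 2 of the 4 were highest in tumor 4. The other tumors of 1 to 6 held 2.59 to 28.3 CPM for the B cell list and 1.46 to 26.6 CPM for the NK list, and controls held 88.8 to 107 CPM and 38.2 to 39.5 CPM. The sum of the fibroblast list (5 markers) was also highest in tumor 4, at 404 CPM. It was between 36.5 and 279 CPM in the other tumors and between 156 and 171 CPM in controls. Col1a2 held 376 CPM of that sum in tumor 4, and 1 of the 5 markers was highest there. The sum of the thymic epithelium list (7 markers) was 103 CPM in tumor 4. It was between 66.5 and 84.0 CPM in the other tumors and between 141 and 156 CPM in controls. Ccl25 held 62.8 CPM of that sum in tumor 4, and 1 of the 7 markers was highest there. The macrophage list (8 markers) was at 69.1 CPM in tumor 4, against values between 50.3 and 379 CPM in the other tumors and between 68.3 and 74.1 CPM in controls. The dendritic cell list (6 markers) was at 60.4 CPM in tumor 4, against values between 18.7 and 89.1 CPM in the other tumors and between 125 and 153 CPM in controls. Of thymocyte stages, the list for cells with both CD4 and CD8 (9 markers) was highest in tumor 4, at 2865 CPM. It was between 985 and 2652 CPM in the other tumors of 1 to 6. Satb1 held 1549 CPM of that sum in tumor 4, and 1 of the 9 markers was highest there. The mature thymocyte list (7 markers) was at 336 CPM in tumor 4, against values between 216 and 923 CPM in those other tumors. None of these markers was at 0 in tumor 4, and their part in the levels of the class I genes was not tested.

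**Figure D3:**
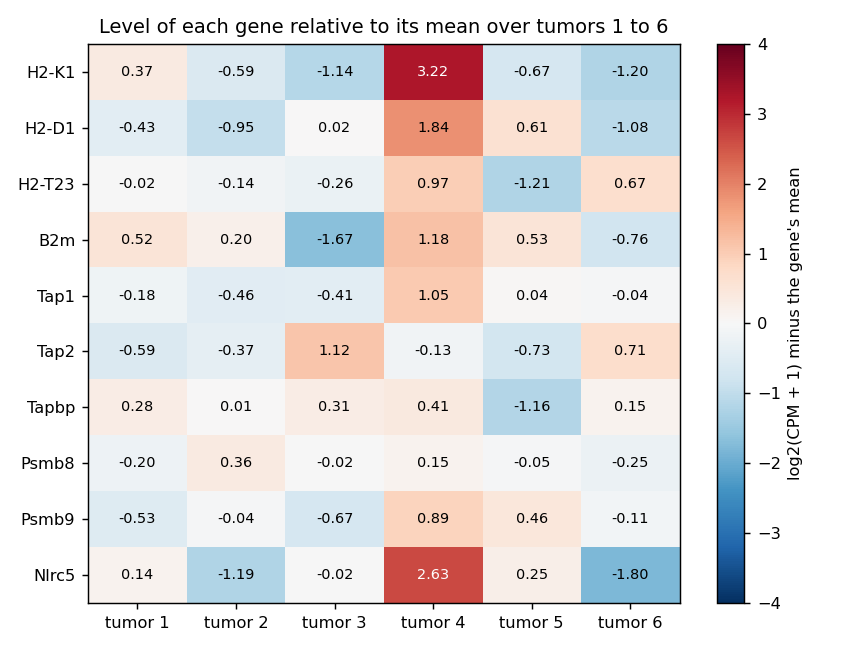
Difference of each gene's log2(CPM + 1) in tumors 1 to 6 from its own mean over those tumors, red above and blue below, with the value in each cell. The column of tumor 4 is positive for every gene but Tap2, and is largest for H2-K1 (3.22) and Nlrc5 (2.63), on nuclear protein-coding counts. With whole library totals tumor 4 was highest for 2 of the 10 genes.

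Among the 10 protein-coding genes whose centred log2 levels over tumors 1 to 6 lay nearest to the mean profile of the class I genes were Foxo1, Nr3c2, Chrnb2, Ugcg, Parp14, Ift80, Gimap6, Il27ra and Sh3kbp1. The root mean square differences of the 10 from that profile were 0.122 (Foxo1) to 0.278 (Sh3kbp1), against a median of 0.726 over the 9619 genes. Of the class I genes, Tap1 was nearest to the profile, at 0.203, and H2-K1 farthest, at 0.995. Foxo1, a transcription factor of T cell quiescence, was at 40.1, 34.1, 35.5, 80.5, 32.2 and 29.8 CPM in tumors 1 to 6. Parp14, an ADP-ribosyltransferase, was at 115, 71.2, 69.6, 233, 70.8 and 85.5 CPM in the same tumors. Likeness was measured over 6 tumors that include tumor 4, and the genes were ranked, not tested.

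The files also count single transcripts, and these showed which models of each gene took the reads. The share of a gene's counts on transcripts labelled protein_coding was higher in each of tumors 1 to 6 than in every control for H2-K1, Tap1, Psmb8 and Psmb9. For H2-K1 it was between 74.5% and 100% in tumors 1 to 6, between 33.0% and 63.0% in tumors 7 to 9 and between 17.1% and 24.2% in controls. For Tap1 it was between 46.9% and 72.6% in tumors 1 to 6, between 0% and 13.5% in tumors 7 to 9 and between 3.02% and 8.02% in controls. For Psmb8 it was between 67.0% and 91.0% in tumors 1 to 6, between 26.7% and 56.2% in tumors 7 to 9 and between 33.0% and 40.8% in controls. For Psmb9 it was between 45.8% and 75.3% in tumors 1 to 6, between 25.8% and 33.2% in tumors 7 to 9 and between 3.54% and 14.7% in controls. In the controls, retained-intron models held 92.0% to 97.0% of all Tap1 counts, 85.3% to 96.5% of those of Psmb9, 59.2% to 67.0% of those of Psmb8 and 58.9% to 68.7% of those of H2-K1. How many of all genes separate the groups in this way was not computed. The separation is therefore not shown to be particular to the class I genes.
The shares of H2-D1, H2-T23, Tapbp and Nlrc5 overlapped between tumors 1 to 6 and controls, and B2m has a single transcript in the files. Tap2 went the other way: 11.7% to 21.9% of its counts were on protein_coding transcripts in tumors 1 to 6, between 70.8% and 86.5% in tumors 7 to 9 and between 75.4% and 76.98% in controls. In tumors 1 to 6, 67.5% to 80.7% of the Tap2 counts were on Tap2-202, its 1 model labelled retained_intron in the files. By the annotation, Tap2-202 has 11 exons against 12 in the protein_coding Tap2-201, shares 8 of them whole, keeps 1 intron of 162 bases and has a first exon of 57 bases against 1097 bases in Tap2-201. The models thus differ in the long first exon as well as in the intron, and the counts do not tell which of these moved them. Shares of an estimated split among overlapping models are uncertain, and no test was made on them.

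**Figure D4:**
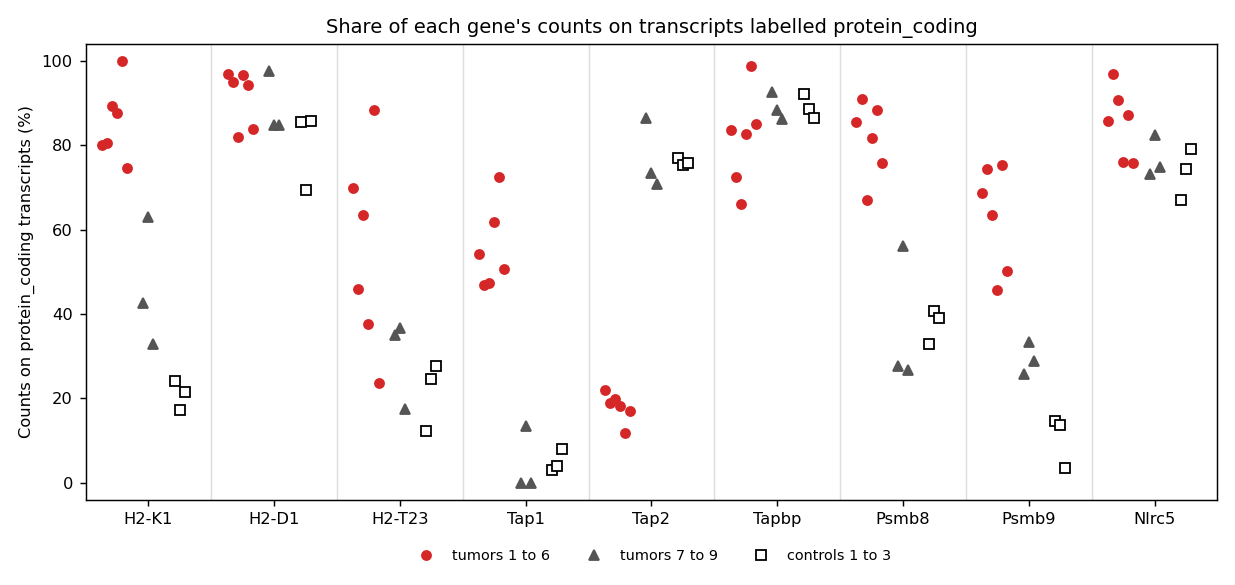
Share of each gene's estimated counts, in percent, on transcripts labelled protein_coding, for tumors 1 to 6 (red circles), tumors 7 to 9 (triangles) and controls (open squares). Tumors 1 to 6 lie above all controls for H2-K1, Tap1, Psmb8 and Psmb9, and below them for Tap2. The share of all genes with such a separation was not computed.

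Tumor was then set against control over all genes, which asks how leukemic thymus differs from healthy thymus. Per kilobase, the 10 genes stood at 3.23 to 4499 times the receptor median of their library in tumors 1 to 4 and 6 (in tumor 5 that median was 0), 0.876 to 12.5 times in tumors 7 to 9 and 1.14 to 7.07 times in controls, apart from B2m in control 1 at 21.6 times. How much of the counts in controls and in tumors 7 to 9 came from RNA and not from genomic DNA was not tested, so their levels, and every fold against the controls, may not be those of RNA. With 6 tumors (1 to 6) against 3 controls, 8 of the 10 class I genes rose (edgeR quasi-likelihood test, TMM scaling, adjusted p below 0.05). Of all 38567 genes tested, coding or not, 19.6% rose and 20.6% fell. Of the 21135 nuclear protein-coding genes among them, 6771 rose and 3209 fell. So did 76 of 80 ribosomal protein genes and 7 of 8 T cell markers rise. The largest log2 fold changes of the 10 genes were 4.88 for B2m (SE 1.09, adjusted p = 0.00478) and 4.07 for Psmb8 (SE 0.39, adjusted p = 6.43e-06). H2-D1 rose by 3.58 (SE 0.72, adjusted p = 0.00159), H2-K1 by 3.56 (SE 1.22, adjusted p = 0.0422), Tap2 by 3.38 (SE 0.52, adjusted p = 0.000123) and Tap1 by 2.84 (SE 0.43, adjusted p = 0.000110). Psmb9 rose by 1.94 (SE 0.47, adjusted p = 0.00487) and Tapbp by 1.26 (SE 0.39, adjusted p = 0.0199). H2-T23, at 0.71 (SE 0.41, adjusted p = 0.159), and Nlrc5, at 1.23 (SE 0.87, adjusted p = 0.242), did not pass. The median log2 fold change was 3.11 over the 10 genes and 3.80 over 80 ribosomal protein genes. It was -0.47 over nuclear protein-coding genes and -1.29 over all genes tested. On CPM, 6 of the 10 genes had all of tumors 1 to 6 above all controls, against 22.8% of 21902 nuclear protein-coding genes. That share is not a like background, since it takes in genes of any level, also those hardly found. The share among genes of like level was not computed. H2-K1 is among the 6, and its lowest tumors overlapped control 2 by counting error.
The calls depended on scaling. With library totals in place of TMM factors, which moved the median of all genes to -3.70, 2 of the 10 genes rose in tumors 1 to 6, B2m by 2.60 and Psmb8 by 1.80, against 4.26% of genes. Under the same totals 2 fell, H2-T23 at -1.58 and Nlrc5 at -1.35, against 74.8% of genes. Of 21135 nuclear protein-coding genes, 1412 rose and 13556 fell with library totals. Under those totals Tapbp and Psmb9 were also below 0, at -1.04 and -0.33, without passing. With relative log expression factors 8 rose (18.0% of genes), and with nuclear protein-coding genes only 7 rose (26.2%). Single libraries set the size of some folds. Without control 1, whose B2m level of 46.1 CPM stood above the 4.02 and 3.30 CPM of controls 2 and 3, the log2 fold change of B2m was 7.33 (SE 0.89). Without tumor 4, that of H2-K1 was 1.95 (SE 0.41), that of Nlrc5 0.19 (SE 0.52) and the median of the 10 genes 2.26. The calls of H2-K1 and Tapbp were the least firm. H2-K1 lost its call without any 1 of the 3 controls (adjusted p 0.145, 0.153 and 0.157), and Tapbp without control 2 or control 3 (0.108 and 0.102). DESeq2 on tumors 1 to 6 called 7 of the 10 higher (19.4% of genes) and gave no p-value for H2-K1, at a log2 fold change of 3.27. With all 9 tumors DESeq2 put H2-K1 at 1.35 (SE 0.56, adjusted p = 0.0667). Counted on protein_coding transcripts alone, Tap2 and Tapbp did not pass (log2 fold changes 0.47 and 0.30), and Tap1 stood at 5.47.
In tumors 7 to 9, with 3 tumors against the same 3 controls, 0 of the 10 genes passed, against 0.0549% of 36449 genes that rose and 0.0549% that fell, and 1 gene, Tap2, had an unadjusted p below 0.05 and was higher, against 5.08% of genes. The median log2 fold change of the 10 genes was 0.02. The change between tumors 1 to 6 and tumors 7 to 9 was not tested.
With all 9 tumors against the 3 controls, 0 of the 10 genes passed in edgeR, against 0% of 40521 genes that rose and 0.00494% that fell. The log2 fold changes were all positive, with a median of 2.91, against -0.45 over all genes. At an unadjusted p below 0.05, 8 of the 10 were higher, against 16.6% of all genes, and none was lower, against 1.16%. Of 21384 nuclear protein-coding genes, 5970 were higher and 130 lower at that level. DESeq2 called 5 higher (H2-D1, B2m, Tap1, Tap2 and Psmb8), against 10.1% of genes. By limma on log2(TPM + 1), 0 of the 10 were higher, against 0.258% of genes, and H2-T23 (-1.50) and Nlrc5 (-1.64) were lower, against 76.2% of genes. With the receptor density of each library as a covariate, 0 of the 10 passed, as did 0% of all genes in either direction, and 2 of the 10 log2 fold changes were positive. The tumor libraries differ in the share of reads on receptor and satellite-like models as described above, so the difference between tumor and control RNA and that share cannot be told apart in this design.

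**Figure D5:**
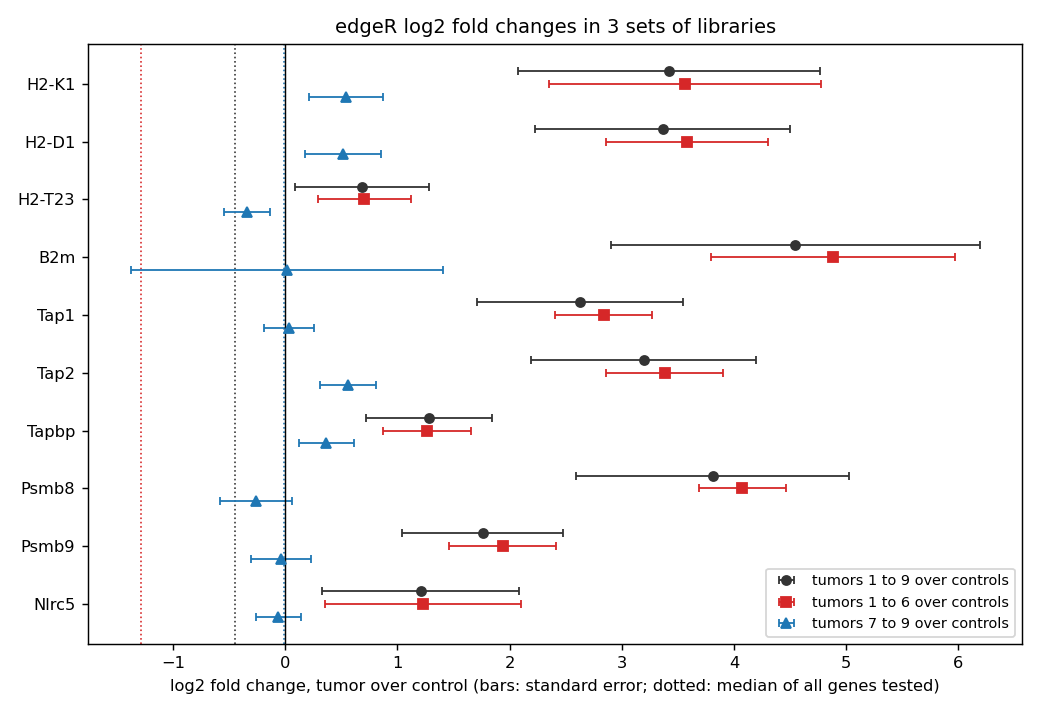
edgeR log2 fold changes, tumor over control, with standard errors, for all 9 tumors (black circles), tumors 1 to 6 (red squares) and tumors 7 to 9 (blue triangles), each against the same 3 controls, with TMM scaling. Dotted lines mark the median of all genes tested in each fit, -0.45, -1.29 and -0.01. With library totals H2-T23, Tapbp, Psmb9 and Nlrc5 were below 0 in the fits of all tumors and of tumors 1 to 6.

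Genes that work with the class I genes are described from lists chosen with earlier results known, in tumors 1 to 6 against control under TMM scaling and, after it, library totals. Of 21135 nuclear protein-coding genes tested, 6771 rose and 3209 fell under TMM scaling. With library totals 1412 of them rose and 13556 fell. Of the loading complex and peptide trimming list, 9 of 9 genes rose and their median was 4.16 on the log2 scale. With library totals 6 of 9 rose. Hsp90b1, a chaperone of the endoplasmic reticulum, was the highest of them at 605 CPM on average in tumors 1 to 6, and Tapbpl, a peptide editor related to tapasin, the lowest at 40.2 CPM. Of the other inducible proteasome genes, 2 of 3 rose, Psme1 and Psme2, which encode the PA28 activator, and 1 of 3 with library totals. Psmb10 averaged 8.48 CPM in tumors 1 to 6 and 6.91 CPM in controls (log2 fold change 1.18, SE 0.55, adjusted p = 0.0912). All 6 constitutive proteasome genes rose, and 2 of 6 with library totals. Psmb7 averaged 147 CPM and Psmb5 10.2 CPM in tumors 1 to 6.
Of 17 other class I-like genes, 6 rose and 0 fell, with a median of 0.60. Of 21135 nuclear protein-coding genes, 6771 rose and 3209 fell. With library totals 1 of the 17 rose and 10 fell, against 1412 and 13556 of the 21135. H2-Q4, a non-classical heavy chain of the Q region, averaged 124 CPM in tumors 1 to 6 and 172 CPM in controls (log2 fold change 0.33, SE 0.39, adjusted p = 0.472). Of 18 regulators of class I, 13 rose and 0 fell, with a median of 2.47, against 3 that rose and 4 that fell with library totals. Suz12, a Polycomb subunit, averaged 473 CPM and Rfxap, a subunit of the RFX factor, 7.99 CPM in tumors 1 to 6. Of 7 interferon receptors and kinases, 6 rose, against 1 that rose and 2 that fell with library totals. Jak1 averaged 324 CPM and Ifngr2 15.0 CPM in tumors 1 to 6.
Of 17 interferon-induced genes, 5 rose and 0 fell, against 6771 and 3209 of 21135 nuclear protein-coding genes. With library totals 0 of the 17 rose and 11 fell, against 1412 and 13556 of the 21135. The summed level of the 17 was 299, 231, 109, 467, 133 and 171 CPM in tumors 1 to 6. It was between 118 and 246 CPM in tumors 7 to 9 and between 274 and 279 CPM in controls. On nuclear protein-coding counts tumor 4 was highest for 12 of the 17. The count with whole library totals, under which that of the class I genes fell, was not computed for this list. The share was 7.43% over the 9619 genes with a mean of at least 10 CPM. That is not a like background, since Isg15 and others of the 17 lie below that mean. Whether the 17 and the class I genes share a cause was not tested. Igtp, an interferon-gamma-induced GTPase, was the highest of the list, at 49.5, 32.9, 6.13, 69.6, 26.3 and 30.2 CPM in tumors 1 to 6, and Isg15 the lowest of those found in each tumor, with a mean of 3.62 CPM. Of 7 class II genes, 4 rose, against 1 that rose and 3 that fell with library totals. Cd74, the invariant chain, was at 251, 65.6, 101, 181, 17.7 and 18.5 CPM in tumors 1 to 6, highest in tumor 1 and not in tumor 4.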

How the data were processed

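Estimated counts, TPM and effective length per transcript were deposited for 12 libraries by the authors, and kallisto, FastQC and the build mm10 are named per the submitters' processing notes. No version, index or filter is given there. The deposited expected counts, which need not be whole, were summed by gene ID over all transcripts and rounded. Deposited TPM values were used for limma. The effective length in the deposited files served to compare genes. Levels are counts per 1000000 nuclear protein-coding counts, a gene being protein-coding where at least 1 of its transcripts is labelled so and it is not mitochondrial. Tests were edgeR 4.0.16 quasi-likelihood (filterByExpr, TMM, robust) on all 12 libraries, with Benjamini-Hochberg adjustment over all genes and a threshold of 0.05. The code was also run on simulated counts, in which both groups had the same mean profile apart from the genes changed. Those counts lacked the difference in satellite-like counts between these libraries, so they cannot show how the test behaves under it. DESeq2 1.42.0 and limma 3.58.1 (log2(TPM + 1), genes with at least 0.1 TPM in 3 libraries) were alternatives. The standard error is the log2 fold change divided by the root of F. Member counts in tumors 1 to 6 were 34 to 5021, for which the upper 95% Wilson bound lies 2.80% to 39.7% above the level. Nothing in the labels says how the samples of a group were separated beyond their names, so p-values measure the spread between these samples.

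The class I genes and all lists were chosen with earlier results of these data known. Named genes are all 10 class I genes, the highest and lowest gene of each other list over tumors 1 to 6 among those of at least 1 CPM in each, and the 10 genes of most like pattern, of which 1 is not reported here. Psme2 and Psmb6 fall outside that rule and were named after their values were seen. Coordinates come from GENCODE M21 by gene ID without version. Alternatives were other scalings, filters, tools, left-out libraries, a replicate block and protein_coding transcripts only.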

Additional observations from a re-analysis of the deposited data

Results flagged for a closer look

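In 4 genes tumor 4 lay far above the other tumors, by the gap to the nearest value divided by the range. For H2-K1 (452 CPM) that ratio was 0.903 among tumors 1 to 6 and 0.874 among tumors 1 to 9. For Nlrc5 (151 CPM) it was 0.848 in both sets. For Tap1 (129 CPM) it was 0.776 and 0.526, and for H2-D1 (215 CPM) 0.659 and 0.589. Tapbp was far below the other tumors of 1 to 6 in tumor 5, at 7.50 CPM, with a ratio of 0.641. The critical values at 95% are 0.625 for 6 samples and 0.493 for 9. These are 9 flags in 20 sets of values, and the sets of a gene share libraries. The critical values assume normally distributed values, but the ratios were taken on unlogged CPM. The sets of 9 also mix tumors 1 to 6 with tumors 7 to 9. How many sets chance would flag is therefore not known, and ratios on a log scale were not computed. What set tumor 4 apart was not tested.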

How the results depend on the processing

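The 10 log2 fold changes were refitted under 26 alternatives to the fit of all libraries. Of 260 values, 201 kept their sign and stayed uncalled, 29 kept their sign and passed, and 30 changed sign. The number of the 10 genes called higher, 0 in that fit, was 5 with DESeq2 and 8 without tumors 7 to 9. It was 0 each time a single library was left out, as was the number lower, with no sign changed. The number called lower, also 0, was 2 with limma at either pseudocount. With limma on log2(TPM + 1) the values were -0.88 (H2-K1), -0.0066 (H2-D1), -1.50 (H2-T23), -0.21 (Tap1), -0.91 (Tapbp), -0.31 (Psmb9) and -1.64 (Nlrc5). With log2(TPM + 0.1) they were -1.09, -0.064, -1.85, -0.31, -1.29, -0.47 and -2.22 for these genes in that order. With the receptor density covariate they were -0.081 (H2-K1), -0.17 (H2-D1), -0.54 (H2-T23), -0.997 (B2m), -0.42 (Tap1), -0.63 (Psmb8), -0.49 (Psmb9) and -0.30 (Nlrc5). With library totals they were -1.37 (H2-T23), -0.76 (Tapbp), -0.46 (Psmb9) and -1.11 (Nlrc5), and in tumors 7 to 9 alone -0.34 (H2-T23), -0.26 (Psmb8), -0.036 (Psmb9) and -0.060 (Nlrc5). The causes were not tested. Of the alternatives chosen after seeing the data, the fits of tumors 1 to 6 gave 8 genes higher, 6 to 8 with a single library left out, and 2 higher and 2 lower with library totals.

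With the replicate block over tumors 1 to 3 and controls 1 to 3, 8 genes were higher (22.8% of all genes), and 8 without the block (24.2%). Deviations of same-numbered libraries had correlations of -0.03, 0.05 and 0.01, which showed no pairing by number. With 3 libraries a group, and controls rich in satellite-like counts, they could not exclude one.

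The log2 ratio of highest to lowest tumor stayed within 1 SD in 50 of 60 alternatives. It moved for H2-T23 (1.04 on protein_coding transcripts), Tap2 (2.93 over ribosomal counts, 2.64 on protein_coding transcripts), Tapbp (2.63 over ribosomal counts), Psmb9 (2.34 per length) and Psmb8 (1.37 over library totals, 1.19 over ribosomal counts, 0.98 per length, 0.85 with relative log expression factors, 0.88 on protein_coding transcripts, against 0.61). The lowest count behind a level in tumors 1 to 6 was 34, so differences between neighbouring tumors are often within counting error.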
